A study of Mus musculus with 2 samples.

Results

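The 10 genes described here encode nuclear receptors for sterols, bile acids, foreign compounds and vitamins, or close relatives of such receptors. They were taken by name, namely Nr1h2, Nr1h3, Nr1h4, Nr1i2, Nr1i3, Vdr, Nr5a2, Esrra, Rara and Rarg. All 10 were found among the 45706 genes in the files. They were measured by RNA sequencing in mouse intestinal stem cells. The cells came from mice of the strain Lgr5-EGFP-IRES-creERT2, aged 4 months in both groups, and were sorted for high green fluorescent protein, which this allele expresses from the Lgr5 locus of crypt-base stem cells. There was 1 library from fasted mice and 1 library from mice fed standard chow without restriction. The labels state neither how long the fast lasted nor how many mice each library holds. The study's design compares the fasted with the fed condition in this cell type.

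Nuclear receptors are transcription factors that bind small fat-soluble ligands and then change the transcription of nearby genes. Most of the receptors described here pair on DNA with a retinoid X receptor (RXR). In the intestine the liver X receptors (LXRs) sense oxysterols and drive cholesterol export, the farnesoid X receptor (FXR) senses bile acids, and the pregnane X receptor (PXR) and the constitutive androstane receptor (CAR) induce enzymes that clear foreign compounds. The vitamin D receptor governs calcium uptake, and the retinoic acid receptors (RARs) act on vitamin A acid. The liver receptor homolog LRH-1 supports crypt renewal, and the estrogen-related receptor alpha (ERR alpha) drives mitochondrial genes.

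With 1 library per condition the difference cannot be checked against replicates, so no p-value is given and each value describes these libraries. The fasted library held 5020056 counts and the fed library 6985316. Log2 ratios are fasted over fed after scaling by size factors, and the 95% intervals in parentheses cover counting error only. A gene counted as measured when both libraries together held 20 or more of its reads and its mean level reached 1 CPM (counts per 1000000 counts of its library). Of measured genes, those at or beyond 2-fold whose interval left out a ratio of 1 are named higher or lower, always with respect to the fasted library. Levels compared between genes are in TPM (transcripts per 1000000 transcripts), which correct for exon length. On the TPM scale the log2 ratio of any gene differs by -0.095 from that on the size-factor scale.

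In these libraries Vdr was by far the most abundant of the 10 receptors, and the highest ratios belonged to Nr1i3, Nr1h4 and Nr1h3. Of the 10 receptors 9 were measured, 1 was higher in the fasted library and 0 were lower. Over all 12026 measured genes 302 were higher (2.51%) and 230 were lower (1.91%). The receptor called higher was Nr1i3, which rests on few reads. At a threshold of 1.5-fold 3 of 9 receptors were higher, which were Nr1i3, Nr1h4 and Nr1h3, and 0 were lower, against 614 (5.11%) higher and 607 (5.05%) lower among all measured genes. The median log2 ratio of the 9 receptors was 0.25, against -0.018 over all measured genes. The interval lay above a ratio of 1 for 5 receptors and below it for 0, whereas it lay above 1 for 16.7% and below 1 for 19.2% of all measured genes. The remaining 4 intervals held a ratio of 1. In the same libraries 12 of 16 markers of absorptive enterocytes were higher, and their part in the receptors' ratios was not tested.

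An annotated start region is printed for each of the receptors with the 3 highest ratios. Each window runs from 250 bases before to 50 bases after an annotated start, 5′ to 3′ on the gene's strand, as in RefSeq for GRCm38.p6. Capitals mark AGGTCA or its reverse complement TGACCT, the core motif that most nuclear receptors recognise. Nr1i3 is shown at chr1:171213720-171214019 on the plus strand, Nr1h4 at chr10:89506609-89506908 on the minus strand, and the first of 2 windows of Nr1h3 at chr2:91195067-91195366 on the minus strand. The printed starts of Nr1h4 and Nr1h3 lie inside the gene spans given below, not at their 5′ ends. Which starts the transcripts in these libraries used was not tested.
Nr1i3: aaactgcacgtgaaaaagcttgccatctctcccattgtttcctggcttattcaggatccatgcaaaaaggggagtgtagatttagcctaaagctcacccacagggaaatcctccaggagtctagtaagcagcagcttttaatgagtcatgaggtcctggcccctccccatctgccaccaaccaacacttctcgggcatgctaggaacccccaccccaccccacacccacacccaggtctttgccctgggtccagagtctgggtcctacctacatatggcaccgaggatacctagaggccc
Nr1h4: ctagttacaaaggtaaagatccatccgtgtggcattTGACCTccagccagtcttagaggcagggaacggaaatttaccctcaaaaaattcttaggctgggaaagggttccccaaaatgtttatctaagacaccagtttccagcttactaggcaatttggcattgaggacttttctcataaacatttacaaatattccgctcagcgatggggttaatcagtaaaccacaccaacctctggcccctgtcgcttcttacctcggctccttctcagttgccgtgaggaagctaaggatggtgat
Nr1h3: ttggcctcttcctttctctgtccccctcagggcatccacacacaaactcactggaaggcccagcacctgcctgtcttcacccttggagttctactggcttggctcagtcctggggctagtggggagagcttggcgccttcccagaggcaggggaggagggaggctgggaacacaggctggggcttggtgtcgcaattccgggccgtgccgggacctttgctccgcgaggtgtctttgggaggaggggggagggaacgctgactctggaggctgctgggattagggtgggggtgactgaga
The Nr1h4 window held the motif as TGACCT, beginning 214 bases before the start, and the windows of Nr1i3 and Nr1h3 did not hold it. RefSeq gave 16 windows for the 10 receptors, and 4 of them, in Nr1h4, Nr5a2, Rara and Rarg, held the core motif. The motif was in 16.3% of all 32851 windows. Repeats of the core motif, which also contain it, were searched on both strands and found in 0 receptor windows. AGGTCA followed by another AGGTCA was in 0.0396% of all windows with 1 base between, in 0.00609% with 3, in 0.0152% with 4 and in 0.00913% with 5 bases between. AGGTCA followed after 1 base by TGACCT, the form that FXR prefers, was in 0.00913% of all windows. The extended motif TCAAGGTCA, a form that LRH-1 and ERR alpha bind, was in 0 receptor windows and in 0.423% of all windows.

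The levels per length put the receptors in 3 tiers. Vdr, the vitamin D receptor gene (chromosome 15, 97854425 to 97910630 in GRCm38), had 754 TPM (736 to 773) in the fasted library and 642 TPM (628 to 657) in the fed library. Only 1.01% of measured genes had a higher level in the fasted and 1.15% in the fed library. Among the 49 genes of the nuclear receptor superfamily Vdr had the highest level in the fasted library, ahead of Hnf4a with 739 TPM, and the next highest after Hnf4a with 917 TPM in the fed library. It took 24.5% of the summed level of the superfamily in the fasted and 21% in the fed library. The 10 receptors together summed to 1282 TPM in the fasted and 1119 TPM in the fed library.

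The next tier held the other receptors apart from Nr1i3 and Rarg. Nr1h2, which encodes the widely expressed LXR beta, had 133 TPM in both libraries, 5.69-fold below Vdr in the fasted and 4.82-fold in the fed library. Esrra had 113 TPM (105 to 121) in the fasted and 102 TPM (95.3 to 109) in the fed library. Nr1i2, the PXR gene, had 111 TPM (101 to 122) in the fasted and 108 TPM (98.9 to 117) in the fed library. Esrra and Nr1i2 stood next to each other in both libraries, in opposite order, and their intervals overlapped in each. This closeness depended on the length used. With the longest transcript as length, Esrra had 158 TPM in the fasted and 142 TPM in the fed library. Nr1i2 then had 87.5 TPM in the fasted and 85.0 TPM in the fed library. Nr5a2, Rara, Nr1h4 and Nr1h3 followed, at 30.6 to 57.8 TPM in the fasted and 24.0 to 41.0 TPM in the fed library. Nr1h4 stood above the other 3 in the fasted library without overlap to its neighbour Nr5a2. In the fed library it stood below Nr5a2 and Rara, with an interval that overlapped those of its neighbours Rara and Nr1h3. In the lowest tier Nr1i3 had 3.79 TPM (2.47 to 5.55) in the fasted and 1.76 TPM (1.01 to 2.86) in the fed library. This level of Nr1i3 is uncertain, because another gene shares most of its exon bases, as given below. Rarg had 1.06 TPM (0.424 to 2.18) in the fasted and 0.913 TPM (0.394 to 1.80) in the fed library, and in the fed library its interval overlapped that of Nr1i3.

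**Figure D1:**
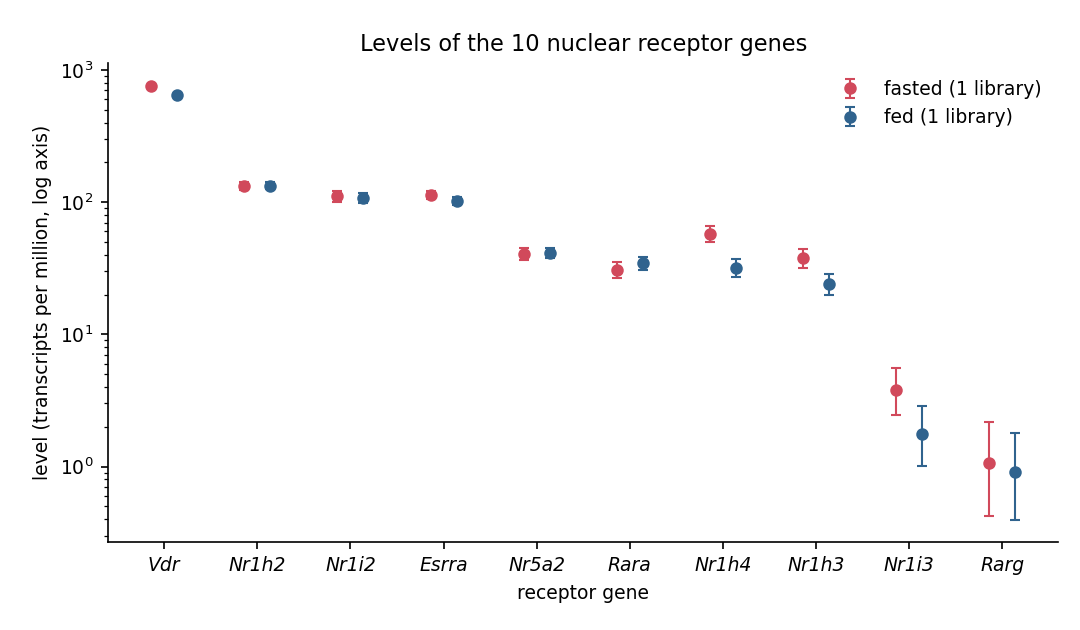
Levels of the 10 receptor genes in TPM on a log axis, with the fasted library left and the fed library right for each gene, and bars that give the 95% Poisson counting interval. Vdr lies above all others at 754 and 642 TPM, Nr1i3 and Rarg lie below 4 TPM in both libraries, and Nr1h4 and Nr1h3 show the widest gap between the libraries among the genes above 20 TPM. The level of Nr1i3 is uncertain, because another gene shares most of its exon bases.

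Among the bile acid and sterol receptors, Nr1h4 and Nr1h3 had positive ratios and Nr1h2 a ratio near 1. Nr1h4, which encodes FXR (chromosome 10, 89454234 to 89533585), had 207 counts in the fasted and 151 in the fed library. Although the fasted library was the smaller, it held more Nr1h4 reads, and the scaled ratio was 1.94-fold, a log2 ratio of 0.95 (0.64 to 1.27). It lay just short of the 2-fold threshold, and 3.10% of measured genes had a higher ratio. Nr1h3, the LXR alpha gene (chromosome 2, 91184061 to 91202834), had 147 counts in the fasted and 124 in the fed library, a log2 ratio of 0.74 (0.39 to 1.10) or 1.67-fold, with 4.81% of measured genes above it. Nr1h2 (chromosome 7, 44549616 to 44553951) had 692 counts in the fasted and 920 in the fed library, a log2 ratio of 0.087 (-0.057 to 0.23). The interval of Nr1h2 held a ratio of 1, and that of Nr1h3 did not.

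The share of LXR alpha among LXR reads differed between the libraries beyond counting error. Nr1h3 took 147 of 839 reads of the pair in the fasted library, 17.5% (15 to 20.3, exact binomial interval), and 124 of 1044 in the fed library, 11.9% (9.98 to 14). The log2 ratio of Nr1h3 exceeded that of Nr1h2 by 0.66 (0.27 to 1.04, exact conditional interval). Per length, Nr1h2 remained the more abundant, 3.53-fold above Nr1h3 in the fasted and 5.56-fold in the fed library.

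Of the xenobiotic receptors, Nr1i2 was 29.3-fold above Nr1i3 per length in the fasted and 61-fold in the fed library. Nr1i2 (chromosome 16, 38248323 to 38294824) had 440 counts in the fasted and 565 in the fed library, a log2 ratio of 0.14 (-0.046 to 0.32). Nr1i3, the CAR gene (chromosome 1, 171213970 to 171220701), had 26 counts in the fasted and 16 in the fed library, a log2 ratio of 1.20 (0.25 to 2.19) or 2.29-fold. The gene Tomm40l lies on the opposite strand of Nr1i3 and covers 74.9% of its exon bases. Tomm40l itself had 70 counts in the fasted and 76 in the fed library, a log2 ratio of 0.38 (-0.11 to 0.87). Whether the counting used strand is not given in the sources used here. Without strand, reads of Nr1i3 and Tomm40l on the shared bases cannot be told apart. The TPM of Nr1i3 divides by all its exon bases, shared ones included. The counts, level and ratio of Nr1i3, and its comparisons with Nr1i2, are therefore uncertain. Nr1i3 took 5.58% (3.68 to 8.07) of the reads of the pair with Nr1i2 in the fasted library and 2.75% (1.58 to 4.43) in the fed library. Its log2 ratio exceeded that of Nr1i2 by 1.06 (0.087 to 2.08).

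**Figure D2:**
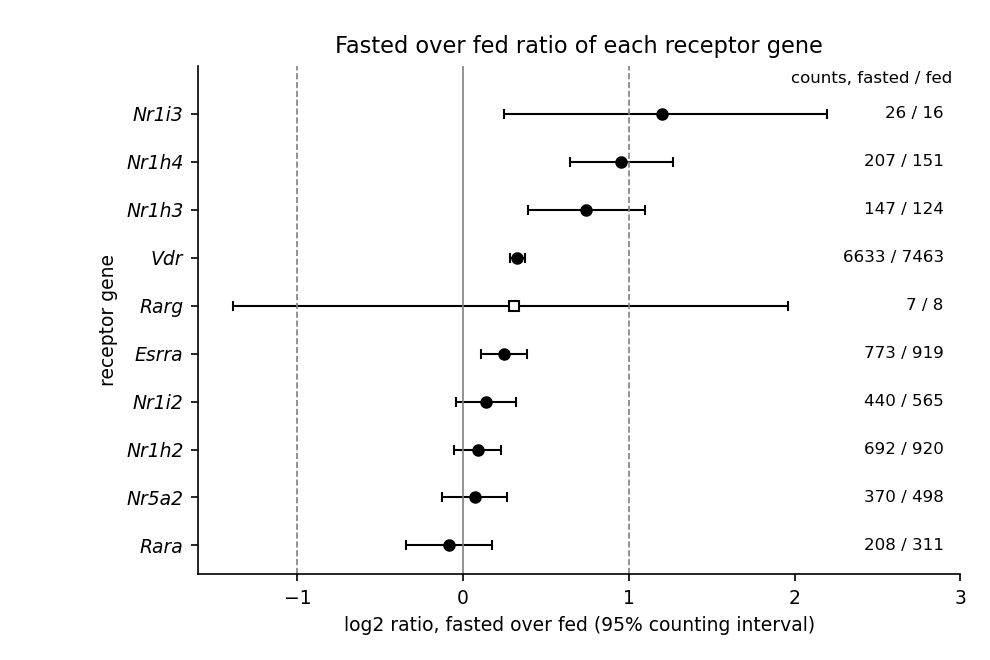
Log2 ratio of fasted over fed for each receptor gene, with the 95% counting interval and the raw counts of the fasted and the fed library at the right. Dashed lines mark 2-fold, and the open square marks Rarg, which was not measured. Nr1i3 at 1.20 lies past 2-fold with a wide interval, Nr1h4 at 0.95 and Nr1h3 at 0.74 lie below it, and the other measured receptors lie between -0.083 and 0.33.

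The vitamin receptors showed small ratios. Vdr had 6633 counts in the fasted and 7463 in the fed library, a log2 ratio of 0.33 (0.28 to 0.38) or 1.25-fold. Its interval, narrow with so many reads, excluded 1, and 15.3% of measured genes had a higher ratio. Rara, the RAR alpha gene (chromosome 11, 98927818 to 98974942), had 208 counts in the fasted and 311 in the fed library, a log2 ratio of -0.083 (-0.34 to 0.18). It was the only measured receptor of the set with a negative ratio, and its interval held 1. Rarg, the RAR gamma gene (chromosome 15, 102234938 to 102257517), had 7 counts in the fasted and 8 in the fed library. Its log2 ratio of 0.31 (-1.39 to 1.96) is not informative at this depth, and Rarg did not pass the minimum for measured genes. It took 3.26% (1.32 to 6.59) of the reads of the pair with Rara in the fasted and 2.51% (1.09 to 4.88) in the fed library. The log2 ratios of Rarg and Rara differed by 0.39 (-1.33 to 2.07), so a difference between them was not detectable at this depth.

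The orphan receptors, which have no classical hormone, had ratios close to 1. Nr5a2, the LRH-1 gene (chromosome 1, 136842571 to 136960448), had 370 counts in the fasted and 498 in the fed library, a log2 ratio of 0.069 (-0.13 to 0.27). Esrra, the ERR alpha gene (chromosome 19, 6910977 to 6921813), had 773 counts in the fasted and 919 in the fed library, a log2 ratio of 0.25 (0.11 to 0.39) or 1.19-fold. The Esrra interval excluded 1 and that of Nr5a2 did not, while both ratios stayed well within 2-fold.

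**Figure D3:**
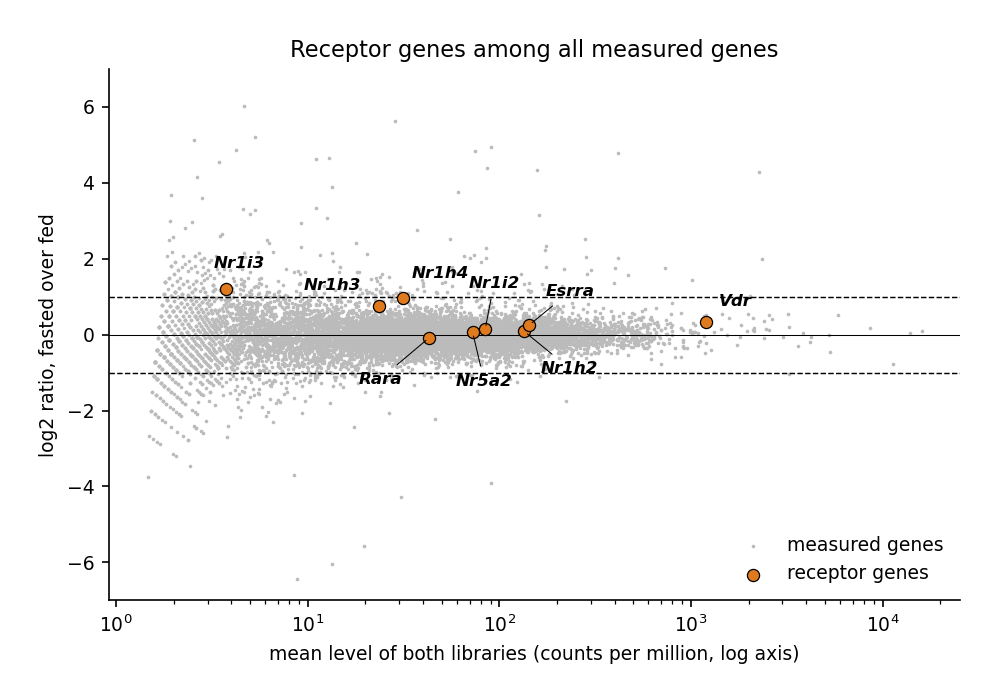
Log2 ratio of fasted over fed against the mean level in CPM (log axis) for measured genes with counts in both libraries, in grey, and for the 9 measured receptor genes, in orange with names. Dashed lines mark 2-fold. Most receptors lie in the dense part of the cloud near 0, and Nr1h4, Nr1h3 and Nr1i3 lie at its upper edge.

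Within the nuclear receptor superfamily Nr1i3, Nr1h4 and Nr1h3 were among the 6 genes of highest ratio. Of the 49 genes 35 were measured, 2 were higher and 0 were lower, against 2.51% higher and 1.91% lower over all measured genes. The highest ratio belonged to Nr0b2 and the next to Nr1i3, followed by Nr1h4, while Nr1h3 ranked 6 of 35. The ranks between were taken by Hnf4g with 0.85 and Ppara with 0.75, named after their values were seen. Of the 39 superfamily genes outside the set 26 were measured, with 14 positive and 12 negative ratios and a median of 0.091, against 8 positive and 1 negative ratio in the set. The partner genes Rxra and Rxrb had 580 and 504 counts in the fasted and 655 and 674 counts in the fed library. Their log2 ratios were 0.32 (0.16 to 0.49) for Rxra and 0.079 (-0.091 to 0.25) for Rxrb, and Rxrg had 0 counts in both libraries. Of 18 coregulator genes, which receptors recruit to activate or silence transcription, 0 were higher or lower. Their log2 ratios ran from -0.29 to 0.47 with a median of -0.059. Among the most abundant, the corepressor gene Ncor1 had -0.091, its deacetylase partner gene Hdac3 had 0.062 and the acetyltransferase gene Ep300 had -0.13.

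Many known targets of these receptors are also active in absorptive enterocytes, so the cell type markers were read first. Of 16 enterocyte markers 12 were higher in the fasted library and 0 lower, with a median log2 ratio of 1.17. Among all measured genes 2.51% were higher and 1.91% lower. Their summed level was 3435 CPM in the fasted and 1593 CPM in the fed library, and none was at 0. The log2 ratios ran from -0.014 (-0.084 to 0.056) for Vil1, the most abundant by mean CPM, to 4.78 (4.58 to 4.99) for Fabp1. Fabp1 alone had 806 CPM in the fasted and 29.8 CPM in the fed library. Of 12 stem cell markers 0 passed the threshold and 11 had a negative ratio, with a summed level of 14550 CPM in the fasted and 22130 CPM in the fed library. They were abundant in both, as the label of the cells calls for. Olfm4, a crypt-base transcript, had 41452 counts in the fasted and 100399 in the fed library. Most of each sum came from Olfm4, at 8257 CPM in the fasted and 14370 CPM in the fed library. Of 8 goblet cell markers 3 were higher, with a summed level of 1244 CPM in the fasted and 637 CPM in the fed library. Of 7 Paneth cell markers Mmp7 was higher and the other 6 had negative ratios, with a summed level of 963 CPM in the fasted and 1101 CPM in the fed library. Of 8 enteroendocrine markers 5 were measured and 0 called, at 30.1 CPM in the fasted and 29.4 CPM in the fed library. Of 6 tuft cell markers 2 were measured and 0 called, at 7.77 CPM in the fasted and 10.6 CPM in the fed library, with Il25, named after its values were seen, at 0. Of 6 immune cell markers Cd68 was lower, with 6 counts in the fasted and 25 in the fed library. Their summed level of 806 CPM in the fasted and 1043 CPM in the fed library came almost all from Cd74. The 6 stromal and endothelial markers summed to 1.39 CPM in the fasted and 2.0 CPM in the fed library, with Col3a1, likewise named after its values were seen, at 0. In bulk RNA a change in the number of cells of a type and a change in RNA per cell cannot be told apart. The part of the enterocyte and goblet cell markers in the ratios of the target genes below was not tested.

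The measured genes of the bile acid receptor list were split between 2 that were higher and 5 that were neither higher nor lower. Of 13 genes of FXR response and bile acid transport 7 were measured, 2 were higher, 0 were lower and the median log2 ratio was -0.11. For comparison, 2.51% of all measured genes were higher and 1.91% lower. Nr0b2, which encodes the repressor SHP that FXR and LRH-1 induce, had 33 counts in the fasted and 19 in the fed library, a log2 ratio of 1.29 (0.44 to 2.19). Slc51a, a subunit of the transporter that exports bile acids into the blood, had 83 counts in the fasted and 55 in the fed library, a log2 ratio of 1.09 (0.58 to 1.61). The most abundant members were within counting error of 1 or slightly negative, with Sdc1 at 0.044 (-0.085 to 0.17), Abcc2 at -0.11 (-0.28 to 0.058) and Abcc3 at -0.32 (-0.54 to -0.10). Fgf15, the ileal hormone gene under FXR control, had 1 count in the fasted and 0 in the fed library. It is named after its value was seen, and the fed floor of 3 counts corresponds to 0.429 CPM. Slc51b, the other transporter subunit and likewise named after its values were seen, had 8 counts in each library and was not measured.

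LXR targets had mostly negative ratios, and the LXR alpha gene had a positive ratio. Whether LXR took part in the ratios of the listed targets was not tested. Of 16 targets 12 were measured, 0 were higher, 2 were lower and 8 had a negative ratio, with a median log2 ratio of -0.29. The share over all measured genes was 2.51% higher and 1.91% lower. Scd2, a fatty acid desaturase gene, had 56 counts in the fasted and 1187 in the fed library, a log2 ratio of -3.91 (-4.32 to -3.52). Mylip, whose product degrades the low-density lipoprotein receptor, had 14 counts in the fasted and 57 in the fed library, a log2 ratio of -1.53 (-2.49 to -0.67). Srebf1, a regulator of lipid synthesis, had -0.42 (-0.58 to -0.27) and Fasn, the fatty acid synthase gene, had -0.25 (-0.37 to -0.14). Lpcat3, a phospholipid remodelling enzyme gene, had the opposite sign, at 0.78 (0.65 to 0.92). So did Apoe at 0.89 (0.44 to 1.35) and Smpdl3a at 0.43 (0.24 to 0.61), named after their values were seen, whose intervals also lay above a ratio of 1. The cholesterol exporter genes, named after their values were seen, had negative ratios throughout. Abca1 had 57 counts in the fasted and 158 in the fed library, a log2 ratio of -0.97 (-1.44 to -0.53), just short of the threshold. Abcg5 and Abcg8, whose products act as a pair, had -0.39 (-0.64 to -0.16) and -0.33 (-0.54 to -0.12). Abcg1 was not measured, with 2 counts in the fasted and 14 in the fed library. Among 7 genes that make or dispose of oxysterols, the ligands of LXR, 4 were measured and 1 was higher. This was Cyp27a1, a sterol hydroxylase gene, with 170 counts in the fasted and 103 in the fed library and a log2 ratio of 1.22 (0.86 to 1.59). Hsd3b7 had 0.14 and Cyp39a1 had -0.0996.

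Targets of PXR and CAR were higher in 4 of 15 measured cases and lower in 0, out of 19 listed. Over all measured genes 2.51% were higher and 1.91% lower. Of the 15 ratios 13 were positive and 2 negative, with a median log2 ratio of 0.40. Cyp3a11, a drug and bile acid hydroxylase gene, had 177 counts in the fasted and 88 in the fed library, a log2 ratio of 1.51 (1.13 to 1.89). Ugt1a1, which conjugates bilirubin, had 168 counts in the fasted and 84 in the fed library, a log2 ratio of 1.5 (1.11 to 1.89). The carboxylesterase gene Ces2a had 1.29 (1.06 to 1.53), and Cyp3a13 had 1.09 (0.73 to 1.45). These genes belong to families of close relatives, and Ugt1a1 shares exons with its neighbours, so the split of reads within each family is uncertain. Por, the electron donor of these oxidases, had 583 counts in the fasted and 430 in the fed library, a log2 ratio of 0.94 (0.75 to 1.12), just below the threshold. Alas1, the first enzyme of heme synthesis, had 0.15 (-0.044 to 0.35). The negative ratios were those of Abcc2 and Abcc3, which are also in the bile acid list. Abcc2, the most abundant of the PXR and CAR list by mean CPM, had -0.11 (-0.28 to 0.058). Abcc3 had -0.32 (-0.54 to -0.10), with an interval below a ratio of 1.

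Vitamin D targets were mostly near a ratio of 1 or at very low counts. Of 12 listed genes 7 were measured and 3 were at 0 in both libraries, among them Cyp24a1, the calcitriol-degrading enzyme gene that VDR induces in many tissues. A count of 0 allows Cyp24a1 up to 0.598 CPM in the fasted and 0.429 CPM in the fed library. Trpv6, the calcium entry channel gene and like Cyp24a1 named after its values were seen, had 1 count in the fasted and 3 in the fed library. Of the 7 measured targets 2 were higher and 0 lower, with a median log2 ratio of 0.034. Among all measured genes 2.51% were higher and 1.91% lower. Slc34a2, a phosphate transporter gene, had 34 counts in the fasted and 14 in the fed library, a log2 ratio of 1.78 (0.84 to 2.79), and Cyp3a11, the other, is also in the PXR list. The abundant members Cldn2, Atp2b1 and Cldn12 had 0.14, -0.20 and -0.19. Among 5 genes of vitamin D activation and uptake only Cyp27a1 and Cyp2r1 were measured, and Cyp2r1 had 7 counts in the fasted and 19 in the fed library.

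Retinoid genes were mostly near a ratio of 1. Of 16 RAR targets 6 were measured and 0 were higher or lower, with a median log2 ratio of 0.17. The homeobox gene Cdx1 had 0.22 (0.12 to 0.32), the transglutaminase gene Tgm2 had 0.22 (0.12 to 0.32), and Isx, an intestinal repressor of vitamin A uptake, had 0.12 (-0.056 to 0.30). The retinoic acid hydroxylase genes Cyp26a1 and Cyp26b1, named after their values were seen, had 1 count each in the fasted and 0 in the fed library. Among 20 genes of retinoid handling, of which 12 were measured, 1 was higher and 0 lower, and the median was 0.25. The share over all measured genes was 2.51% higher and 1.91% lower. Rbp2, the cytosolic retinol carrier of absorptive enterocytes, had 359 counts in the fasted and 198 in the fed library, a log2 ratio of 1.36 (1.10 to 1.61). The alcohol dehydrogenase genes Adh1 and Adh5 had -0.13 (-0.25 to -0.0061) and 0.35 (0.23 to 0.48), and the retinol dehydrogenase gene Rdh11 had -0.047 (-0.25 to 0.16).

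Targets of LRH-1 and of ERR alpha had medians near a ratio of 1. Of 10 LRH-1 targets 8 were measured, 2 were higher and 0 lower, with a median log2 ratio of 0.11. For comparison, 2.51% of all measured genes were higher and 1.91% lower. The higher genes were Nr0b2 and Apoa1, and Apoa1 is also an enterocyte marker, with 1462 counts in the fasted and 410 in the fed library. The growth genes Myc and Ccnd1 had 0.12 (0.021 to 0.22) and -0.25 (-0.38 to -0.12). All 20 ERR alpha targets were measured, 1 was higher and 0 lower, with 15 positive ratios and a median of 0.10. The higher gene was Pdk4, which other receptors induce as well, at 4.96 (4.50 to 5.45). The ATP synthase genes Atp5b and Atp5g3 had 0.12 (0.083 to 0.15) and 0.29 (0.23 to 0.35).

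**Figure D4:**
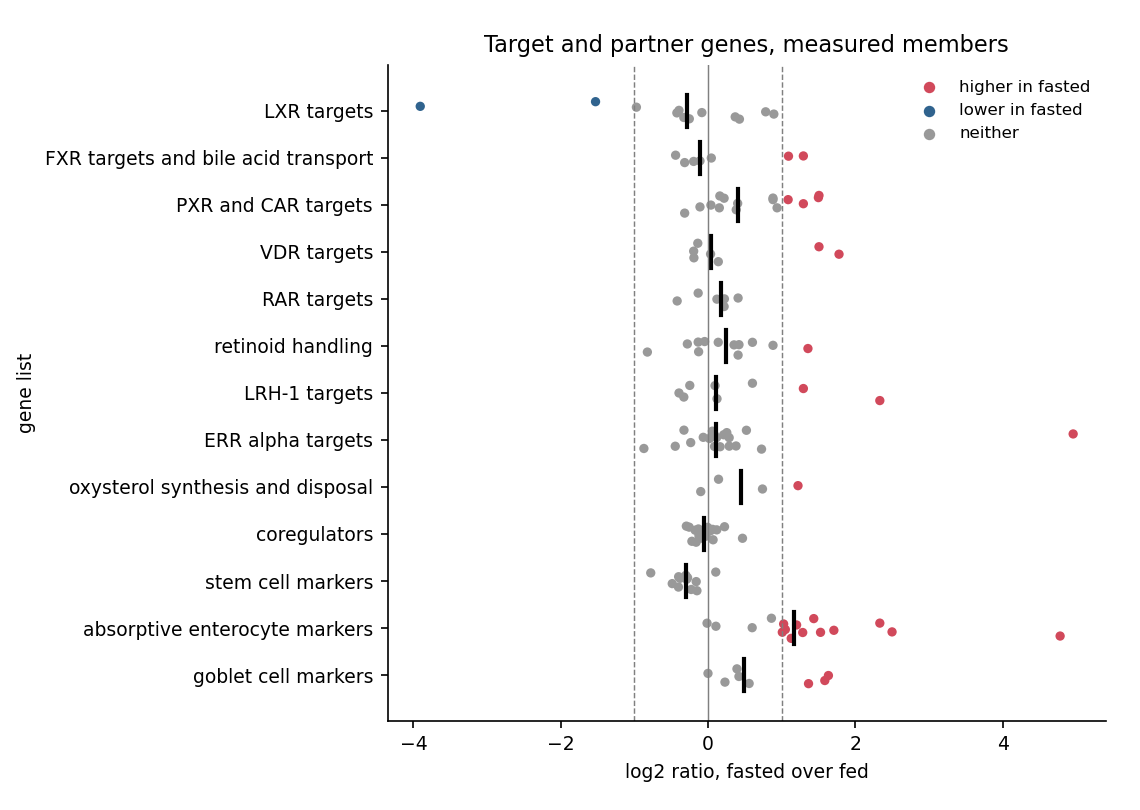
Log2 ratio of fasted over fed for each measured gene of the target, oxysterol and coregulator lists and of the stem cell, enterocyte and goblet cell markers, with red points higher, blue points lower and grey points neither, and a black bar at the median of each list. Dashed lines mark 2-fold. The LXR list has its median at -0.29 and holds the blue points among the lists drawn, the PXR and CAR list has its median at 0.40, and the enterocyte markers have theirs at 1.17.

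The core motif was also looked for in the start windows of the 13 genes of the target, ligand, partner and coregulator lists that were higher or lower, marker lists and the receptors left aside. RefSeq had windows for 12 of them, and 4 held AGGTCA or TGACCT, each once. Among all genes of these lists, called or not, 26 of the 113 with a window held it. The stretches around it are shown because they are the genes among these 12 whose window held the motif. In the order printed they lie at chr16:32487912-32487957 (minus strand), chr5:145879991-145880036 (minus strand), chr8:104733757-104733802 (plus strand) and chr9:98490459-98490504 (plus strand) in GRCm38.p6, 5′ to 3′ on the gene's strand, with the motif in capitals.
Slc51a: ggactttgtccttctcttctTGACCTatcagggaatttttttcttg
Cyp3a11: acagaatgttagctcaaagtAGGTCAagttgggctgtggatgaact
Ces2a: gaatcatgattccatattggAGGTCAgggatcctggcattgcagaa
Rbp2: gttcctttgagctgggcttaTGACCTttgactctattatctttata
The motif began 58 bases before the start in Slc51a and in Rbp2, 162 bases before it in Cyp3a11 and 226 bases before it in Ces2a. A match is a description of the letters and does not show that a receptor binds there.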

How the data were processed

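Per the labels' protocols, cells were sorted into Trizol and libraries were prepared from 1 ug of total RNA with an Illumina TruSeq kit. The deposited counts per Ensembl gene are whole numbers without normalisation, and FastQC, STAR, HTSeq and DESeq as well as the builds GRCm38 and mm10 are named without versions or roles, per the submitters' processing notes. The annotation used for counting is not given in the sources used here. The deposited table of normalised counts holds a signal equal to the count divided by 1 factor per library (0.842 for the fasted and 1.19 for the fed library). Multiplied back, 100% of its values gave whole reads within 0.0051 of a normalised count, and these reads called 302 genes higher and 230 lower.

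Gene IDs were matched to GENCODE release M21 (GRCm38), which gave symbols for 45143 of 45706 IDs, coordinates and exon lengths. Counts were scaled by median-of-ratios size factors, 0.842 for the fasted and 1.19 for the fed library, which are those of the normalised table. Ratio intervals are exact Clopper-Pearson intervals of the fasted share of a gene's reads, and level intervals are exact Poisson intervals. The calculation was checked on simulated counts that held counting error only. That check covers the arithmetic and cannot speak to variation between mice. Alternatives were scaling by total counts, by TMM (edgeR 4.0.16) or by upper quartiles, use of the normalised table, other filters and thresholds, a correction for exon length by a running median over 501 genes, and the longest transcript as length. Computations used Python 3.11.15 with scipy 1.17.1.

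The receptors and the gene lists were chosen with earlier results of these data known. From each list the text names the genes that were higher or lower and the 3 of highest mean CPM. A few genes are not reported here. Genes outside this rule are said to be named after their values were seen.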

Additional observations from a re-analysis of the deposited data

How the results depend on the processing

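The counts of 1 higher and 0 lower receptors held under scaling by total counts, TMM or upper quartiles, and under the correction for exon length or with no low-count filter. They were also the same with the normalised table, which has the same factors as the main scaling and so is no separate check. The number of higher receptors became 0 at a minimum of 5 CPM, which removes Nr1i3, 3 at 1.5-fold, 0 at 3-fold and 0 where the nearer end of the interval had to lie past 2-fold. Over all measured genes the numbers higher and lower were 614 and 607 under the 1.5-fold limit, 176 and 111 under the 5 CPM minimum, 124 and 88 under the 3-fold limit, and 103 and 36 by the interval's end. The fold limits and the interval's end kept the 12026 measured genes. The 5 CPM minimum left fewer genes, so its numbers cannot be set against the others. The median log2 ratio of the receptors ran from 0.193 to 0.288. Across scalings and length correction Nr1h4 ran from 0.898 to 0.977 and Nr1h3 from 0.644 to 0.767, and Vdr had 0.409 after length correction, outside its counting interval. Medians of gene lists near 0 changed sign after length correction, to 0.00055 for FXR, -0.0301 for VDR, -0.0035 for LRH-1 targets and 0.0554 for coregulators. With no low-count filter they became 0.0441 for FXR and -0.14 for VDR targets, and that of retinoid handling became 0.0456. With the longest transcript as length, Nr1i2 and Esrra exchanged places in the fed library, and their levels lay further apart in both libraries. The length correction of the pair differences was added after the data were seen and kept all 3 within their intervals. No paired analysis was possible because each condition has 1 library. Low depth limits Nr1i3 and Rarg.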
